A study of Mus musculus with 39 samples.

Results

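The comparison described here is the step from day 2 to day 4 of myogenic differentiation in FlncKO-C2C12 cells, the days on which fused myotubes form in C2C12 cultures. It rests on 7 of the 39 RNA-seq libraries of the study: 3 knockout libraries of day 2 (replicates 1, 3 and 5) and 4 of day 4 (replicates 1, 3, 4 and 5), chosen by genotype and day alone. C2C12 is a mouse myoblast line that stops dividing and fuses when serum is lowered. The knockout cells carry a CRISPR/Cas9 edit made with a guide RNA to the first exon of Flnc, and the wild-type (WT) C2C12 cells carry none. Both genotypes were grown in 10% fetal bovine serum, moved to 2% horse serum at day 0 with fresh medium each day, and sampled at days 0, 1, 2, 4 and 6. The labels give 1 name to all knockout cells and do not say whether they are a single clone, so every statement on the genotype is about these cells. They also do not say whether replicates were separate cultures, and p-values then measure only the spread between these samples, which may be technical.

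Filamin C is a large actin crosslinker of muscle that sits at the Z-disc, the border of the contractile unit, and at the cell membrane. Differentiating myoblasts leave the cell cycle under Myod1 and Myog, fuse through the membrane proteins myomaker and myomixer, and then build sarcomeres, in which thick filaments of myosin slide along thin filaments of actin between Z-discs. Calcium released from the sarcoplasmic reticulum starts each contraction.

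Over this step, some genes of the thick filament (8 of 27 tested), the thin filament (2 of 21) and the Z-disc (7 of 37) rose in the knockout cells. So did some of cell fusion (3 of 21) and calcium release (3 of 32), and some of the interstitial matrix (4 of 39) fell. Of the 21 fusion genes, 14 had a negative log2 fold change. These calls depended on single libraries, and without replicate 3 of day 2 only 5 genes in all were called higher and 2 lower. Of 13780 genes tested (29980 in the table), 93 rose (0.675%) and 59 fell (0.428%), together 1.1%, at an adjusted p under 0.05 by edgeR's quasi-likelihood test fitted on all 39 libraries. The median log2 fold change over all genes tested was -0.004. With the replicate number as a block in a fit of the 7 libraries, 224 genes rose and 173 fell (3.25% of 12221 tested). DESeq2 on all libraries called 179 higher (1.32%) and 120 lower (0.885%), 2.2% of 13564.

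Total counts per library were 15919936 to 22968149 at day 2 and 9877519 to 19977453 at day 4. Flnc itself stood at 75.9, 93.7 and 79.4 CPM (counts scaled to the library's total) at day 2 (replicates 1, 3 and 5, the order used throughout) and 119, 116, 129 and 159 CPM at day 4 (replicates 1, 3, 4 and 5), below the WT means of 1212 ± 460.2 CPM and 1615 ± 526 CPM (SD, n = 4 each). The day 4 libraries were all above the day 2 libraries, a pattern seen in 5.97% of all genes, with means 0.64 apart on the log2(CPM + 1) scale. The exact two-sided permutation test gave p = 0.0571, the smallest p it allows for 4 against 3 libraries, or 0.0286, again the smallest, when splits are counted by their absolute difference, a version chosen after the first p was seen. Flnc was not called in the all-library edgeR fit (log2 fold change 0.667, adjusted p = 0.578). It was not called with the block (adjusted p = 0.145) or by DESeq2 (adjusted p = 0.485) either. Myod1 at 301, 345 and 261 CPM and Des, the muscle intermediate filament gene, at 3135, 3409 and 1958 CPM at day 2 mark the cells as myogenic. Summed markers of macrophages (1.65 to 3.59 CPM at day 2, 1.72 to 3.44 CPM at day 4) and endothelium (1.14 to 3.14 and 1.47 to 4.31 CPM) were near 0. The defining genes Adgre1, C1qa, Cdh5 and Emcn had no read in any of the 7 libraries. Summed adipocyte markers were at 696.4 to 1673 CPM at day 2 and 698.9 to 1478 CPM at day 4 (Plin1, Cidec and Cfd without a read), neural markers at 38.8 to 54.8 and 22.9 to 51.3 CPM (Sox10, Snap25 and Syt1 without a read), and bone and cartilage markers at 1186 to 1690 and 746.5 to 962.1 CPM.

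Some libraries stood apart. In replicate 3 of day 4, the shallowest of the 7, a set of 22 genes with a median above 5 CPM in WT and under 0.1 CPM in knockout libraries summed to 25.3 CPM, against 0.4 to 10.1 CPM in the other 18 knockout libraries and 184 to 481 CPM in the 20 WT libraries. Its part in the results was not tested beyond leaving it out, after which 70 genes were called higher and 81 lower. The calls moved further with other libraries. Without replicate 3 of day 2, only 5 genes were called higher and 2 lower, and without replicate 5 of day 2, 14 and 12. Without replicate 5 of day 4 the counts were 21 and 8, without replicate 4 of day 4 they were 57 and 16, without replicate 1 of day 4 they were 77 and 37, and without replicate 1 of day 2 they were 61 and 58. Across all 15 alternative settings, 6 genes kept their call: Apobec2, Rap1gap2, Rdh10 and Fhl1 among the rising genes, and Cdh18 and Hacd4 among the falling ones. Rap1gap2 and Rdh10 were singled out after their values were seen.

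Promoter sequence was available from RefSeq (GRCm38.p6) for 67 of the 93 genes that rose (106 promoters) and 46 of the 59 that fell (59 promoters). The 250 bases before the start of 3 of the most strongly rising genes are shown because E-boxes, the CANNTG sites bound by Myod1 and Myog, can be read in them. Capitals mark E-boxes and, in Casq2, also a match to the MEF2 consensus.
Apobec2, chr17:48432729-48432978, minus strand: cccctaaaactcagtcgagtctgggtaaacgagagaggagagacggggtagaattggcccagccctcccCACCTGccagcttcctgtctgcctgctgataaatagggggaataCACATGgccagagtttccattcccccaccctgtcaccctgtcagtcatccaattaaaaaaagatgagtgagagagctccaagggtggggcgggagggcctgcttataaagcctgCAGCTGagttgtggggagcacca
Cav3, chr6:112459255-112459504, plus strand: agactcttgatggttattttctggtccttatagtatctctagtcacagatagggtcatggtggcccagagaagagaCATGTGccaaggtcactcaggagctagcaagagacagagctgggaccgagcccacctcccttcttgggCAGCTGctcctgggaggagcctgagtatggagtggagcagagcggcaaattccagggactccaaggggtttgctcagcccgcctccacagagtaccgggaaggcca
Casq2, chr3:102086165-102086414, plus strand: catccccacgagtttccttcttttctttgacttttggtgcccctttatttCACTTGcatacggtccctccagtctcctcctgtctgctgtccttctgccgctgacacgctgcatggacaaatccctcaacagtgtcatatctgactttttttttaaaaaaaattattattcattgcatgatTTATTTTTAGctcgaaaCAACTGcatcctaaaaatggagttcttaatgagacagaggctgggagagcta
These promoters held 3, 2 and 2 E-boxes and were picked for holding them. Among other genes with the largest rises, the promoters of Myl4 and Smpx held 0 E-boxes, and those of Inmt and Tekt5 held 2 and 1. Fam107a and Filip1 had several promoters each, some with and some without an E-box. Counted on both strands, CANNTG stood in 69.8% of the promoters of rising genes, in 47.5% of those of falling genes and in 66.2% of all 32851 promoters of the same length. The form CAGCTG, which is also a CANNTG, stood in 21.7%, 13.6% and 13.0%. The MEF2 consensus was found in 8.49% of promoters of rising genes, in none of the 59 of falling genes and in 2.92% of all. Several promoters can belong to 1 gene, and a match is a description of letters, not of binding.

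Both genes of the fusion machinery proper rose. Mymk, which encodes myomaker, was at 146, 61.9 and 38.2 CPM at day 2 and 332, 539.9, 351 and 392 CPM at day 4. Every day 4 library was above every day 2 library, although replicate 1 of day 2 was more than the other day 2 libraries together. Mymk rose by 2.32 ± 0.59 (log2 fold change ± SE, here and below) with an adjusted p of 0.0279, and kept its call in 3 of the 7 fits that left out 1 library. The SE describes the spread of log2 CPM between libraries and is not the error used by the test. Mymx, encoding myomixer, was at 15.1, 12.3 and 10.5 CPM and then 35.0, 54.4, 56.7 and 78.8 CPM, again without overlap, a change of 2.17 ± 0.29 (adjusted p = 0.0499, under the threshold in 1 of the 7 fits that left out 1 library). Cav3, encoding the caveolin of the muscle membrane, went from 0.522, 0.726 and 0.502 CPM to 7.02, 14.6, 8.01 and 17.8 CPM and rose by 4.34 ± 0.37 (adjusted p = 0.00967). These 3 were the called genes among 21 tested on the recognition and fusion list, none fell, and the list's median was -0.17. None was called without replicate 3 or replicate 5 of day 2, and 1 was without replicate 3 or replicate 5 of day 4. Dysf, encoding the membrane repair protein dysferlin, was called with the block alone (0.91, adjusted p = 0.0396). In WT cells Mymk averaged 682 ± 145 CPM at day 2 and 1639 ± 373 CPM at day 4 (SD, n = 4 each).

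**Figure D1:**
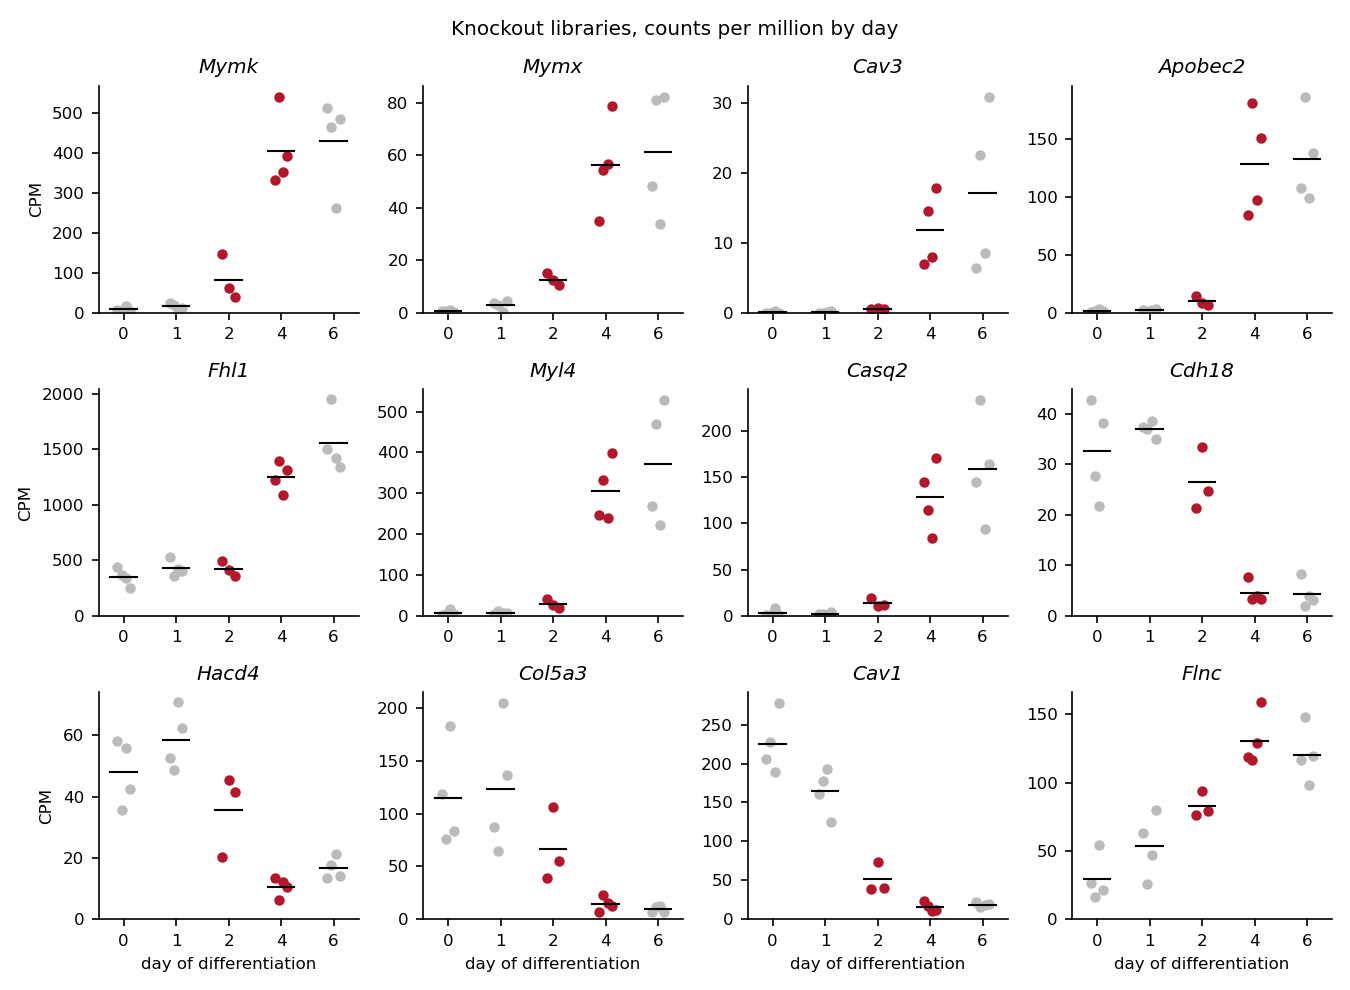
CPM (vertical axis, linear) of 12 genes in each knockout library by day of differentiation. Points are libraries, red at days 2 and 4, and bars are means. For the 11 genes other than Flnc shown here the change between days 2 and 4 was called, and the libraries of these days do not overlap.

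Among 21 factors of the muscle lineage tested, 1 rose. Tead4, a TEAD-family transcription factor, was at 10.7, 4.22 and 4.52 CPM and then 21.7, 25.9, 19.2 and 30.7 CPM, a change of 1.92 ± 0.46 (adjusted p = 0.0018). Myog, the factor that drives terminal differentiation, was at 116, 134 and 114 CPM at day 2 and at 257, 540.0, 358 and 539.9 CPM at day 4. Its libraries did not overlap, yet the all-library test gave 1.83 ± 0.29 with an adjusted p of 0.192, and the block gave an adjusted p of 0.00208. Myod1 differed by -0.16 ± 0.19 (adjusted p = 0.964) and Mef2c, encoding a partner of these factors, by 0.98 ± 0.49 (adjusted p = 0.564). The list's median was 0.078. No member of the list of bHLH inhibitors and the Notch pathway (19 tested) was called (2 at an unadjusted p under 0.05, 0 by DESeq2), and with the block Notch3, a receptor, fell (-1.35, adjusted p = 0.00691).

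Thick filament genes formed the list with the highest median, 2.18, against -0.004 for all genes. Of 27 tested, 8 rose and none fell, and with the block 21 rose (1.83% of all genes tested that way rose). DESeq2 called 16 higher (1.32% of all genes it tested). In 23 the day 4 libraries all lay above the day 2 libraries, a pattern seen in 5.97% of all genes. Myl4, the embryonic and atrial myosin light chain gene, stood at 41.5, 27.6 and 18.4 CPM at day 2 and at 246, 332, 240.0 and 399.7 CPM at day 4, and rose by 3.40 ± 0.39 (adjusted p = 0.0299). Myom3, encoding an M-band protein that links thick filaments, rose by 2.66 ± 0.35 (adjusted p = 0.0219), Trim54, a microtubule-associated ligase of the sarcomere, by 1.39 ± 0.34 (adjusted p = 0.0143), and Myh2, an adult fast myosin heavy chain gene at no more than 4.68 CPM, by 4.40 ± 0.39 (adjusted p = 0.0221). The embryonic myosin heavy chain gene Myh3 was far more abundant, at 166, 88.2 and 98.6 CPM and then 699.7, 987, 609 and 1035 CPM, without overlap. Its change of 2.84 ± 0.35 was not called in the all-library fit (adjusted p = 0.182), and it was called with the block (adjusted p = 0.000388). Myh8 and Myh7, the perinatal and slow heavy chain genes, changed by 4.77 (adjusted p = 0.0681, block 0.000633) and 2.10 (adjusted p = 0.0662, block 0.0025). DESeq2 also called Myh8 and Myh7 (adjusted p = 0.022 and 0.00958), and did not call Myh3 (adjusted p = 0.0779). Without replicate 3 of day 2, replicate 5 of day 2 or replicate 5 of day 4, no thick filament gene was called.

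Thin filament genes had a median of 1.59. Of 21 tested, 2 rose, both troponin C genes, which encode the calcium sensors of the filament. Tnnc1, the slow and cardiac form, was at 124, 71.3 and 47.1 CPM and then 337, 706, 368 and 612 CPM (2.67 ± 0.49, adjusted p = 0.0367). Tnnc2, the fast form, was at 72.1, 38.8 and 36.6 CPM and then 214, 293, 201 and 441 CPM (2.56 ± 0.42, adjusted p = 0.0466). The groups did not overlap in either gene. Tnnc2 lost its call whichever of the 7 libraries was left out (adjusted p = 0.0545 to 0.335), and Tnnc1 kept it in 2 of 7 such fits. With the block 14 members rose, among them the skeletal actin gene Acta1 (2.51, adjusted p = 0.00712, against 0.0531 without it) and the cardiac actin gene Actc1 (2.67, adjusted p = 0.000896, against 0.102). DESeq2 called 11 members higher, with Acta1 and Actc1 among them (adjusted p = 0.00342 and 0.0247). Tnni1 and Tnnt2, troponin I and T genes, gave adjusted p values of 0.0507 and 0.052 in the all-library fit and 0.004 and 0.0014 with the block.

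At the Z-disc, where filamin C itself sits, 7 of 37 tested genes rose, none fell, and the median was 0.64. The count was 1 without replicate 3 of day 2, 2 without replicate 5 of day 2 and 3 without replicate 5 of day 4. Fhl1, encoding a LIM-domain protein of the sarcomere, was at 498, 417 and 360.2 CPM at day 2 and 1226, 1389, 1087 and 1312 CPM at day 4. All 4 later libraries stood well above the earlier ones, the change was 1.57 ± 0.17 (adjusted p = 0.00138), and the WT step was 0.27 (adjusted p = 0.509). The difference between these steps was not called (adjusted p = 0.151, block 0.116). Myo18b, which encodes an unconventional myosin needed for sarcomere assembly, went from 0.958, 0.363 and 0.126 CPM to 7.33, 6.88, 5.81 and 21.3 CPM, with replicate 5 of day 4 highest, and rose by 4.36 ± 0.76 (adjusted p = 0.0018). Myoz2, encoding a calcineurin-binding Z-disc protein, rose by 3.44 ± 0.32 (adjusted p = 0.0185). Hspb8, the small heat shock protein that works with the co-chaperone BAG3 on damaged filamin, went from 101, 52.2 and 46.7 CPM to 151, 147, 129.5 and 159 CPM and rose by 1.15 ± 0.36 (adjusted p = 0.00967). Smpx, a small muscle protein gene, rose by 3.67 ± 0.76 (adjusted p = 0.0221). The Xin-repeat partners of filamin C did not pass: Xirp1 was at 32.4, 9.03 and 6.28 CPM and then 31.5, 43.6, 30.5 and 36.6 CPM (1.17 ± 0.73, adjusted p = 0.272), and Xirp2 did not exceed 1.31 CPM in any of the 7 libraries. Flna, the gene of a filamin found in most cells, differed by -0.64 ± 0.31 (adjusted p = 0.636).

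**Figure D2:**
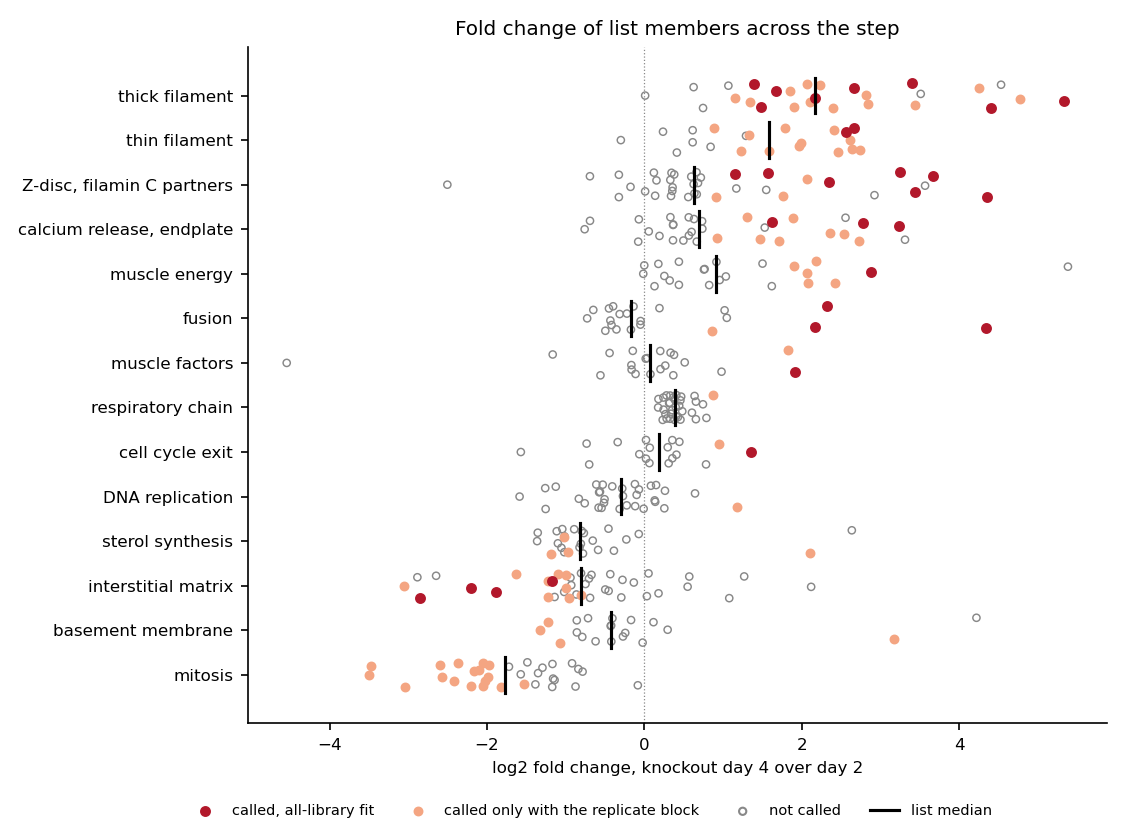
Log2 fold change from day 2 to day 4 in knockout cells (horizontal axis) for the tested members of 14 gene lists. Each point is a gene, and the black line is the list's median. Dark red marks calls of the all-library edgeR fit, and light red those of the replicate block that this fit did not make. Medians run from 2.18 for the thick filament to -1.77 for mitosis.

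Calcium release and endplate genes had a median of 0.70, and 3 of 32 tested rose. Casq2, encoding a calsequestrin that stores calcium in the sarcoplasmic reticulum, was at 19.5, 10.3 and 11.3 CPM and then 144, 115, 84.5 and 171 CPM, well apart, and rose by 3.24 ± 0.36 (adjusted p = 0.0322). Cacna1s and Cacnb1, encoding the pore and a beta subunit of the voltage sensor, rose by 2.77 ± 0.38 (adjusted p = 0.0461) and 1.63 ± 0.36 (adjusted p = 0.0106). With the block 11 members rose. None was called without replicate 3 of day 2, replicate 5 of day 2 or replicate 5 of day 4, and 1 was without replicate 1 of either day. Of the 7 fits that left out 1 library, Cacna1s kept its call in 0, Casq2 in 2 and Cacnb1 in 4. Among 23 genes of muscle energy metabolism, Cox6a2, the muscle form of a cytochrome oxidase subunit, rose by 2.88 ± 0.66 (adjusted p = 0.0271, kept in 4 of those 7 fits and lost without replicate 3 or 5 of day 2 or replicate 5 of day 4), and the list's median was 0.92. Ckm, the muscle creatine kinase gene, was at 45.9, 15.7 and 15.4 CPM and then 68.5, 117, 58.3 and 182 CPM, and its 2.07 ± 0.65 was not called (adjusted p = 0.234, block 0.0172). No nuclear-encoded gene of the respiratory chain was called (4 at an unadjusted p under 0.05, 0 by DESeq2, 1 with the block). All 33 tested had a positive fold change (6683 of all 13780 genes tested did), with a median of 0.39. The list's summed level fell in replicate 1, from 8015 CPM at day 2 to 7346 CPM at day 4. It rose in replicate 3, from 8366 to 11980 CPM, and in replicate 5, from 6317 to 8778 CPM. Mitochondrial genes took a share of the counts of 3.39% ± 0.54 at day 2 (SD, n = 3) and 4.58% ± 1.16 at day 4 (SD, n = 4), with an exact two-sided permutation p of 0.171.

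Outside these lists, the rising genes with the largest fold changes among those of at least 5 CPM on average and without overlap were Inmt, Fam107a, Tekt5, Apobec2, Ablim3, Filip1 and Itgb1bp2. Apobec2, encoding a muscle-enriched member of the cytidine deaminase family, moved from 14.5, 8.62 and 6.91 CPM to 84.6, 181, 96.9 and 151 CPM. The lowest day 4 library was several times the highest day 2 library, and the change was 3.70 ± 0.42 (adjusted p = 0.000432). Fam107a, an actin-associated stress-response gene, moved from 4.48, 7.81 and 6.66 CPM to 28.6, 86.9, 114 and 108 CPM, with replicate 1 of day 4 lowest of its group (3.75 ± 0.53, adjusted p = 0.00505). Inmt, encoding an N-methyltransferase, was at 0.261, 0.182 and 0.879 CPM and then 5.46, 3.44, 7.71 and 33.7 CPM, so replicate 5 was far above the other day 4 libraries (4.91 ± 0.89, adjusted p = 0.0271). Rap1gap2, encoding a GTPase-activating protein of Rap1, was at 9.88, 6.26 and 7.98 CPM and then 66.9, 57.3, 48.1 and 87.8 CPM (3.03 ± 0.27, adjusted p = 0.00138). Rdh10, a retinol dehydrogenase gene of retinoic acid synthesis, was at 24.0, 14.8 and 20.2 CPM and then 63.8, 61.1, 45.6 and 69.7 CPM (1.62 ± 0.25, adjusted p = 0.000432). Itgb1bp2, encoding melusin, an integrin-binding muscle protein, rose by 3.19 ± 0.54 (adjusted p = 0.0276). Ablim3, an actin-binding LIM protein gene, rose by 3.49, Filip1, a filamin A interacting protein gene, by 3.48, and Tekt5, a tektin gene, by 3.72. Of the genes that rose, 2 had no count in any day 2 library, and both were singled out after their values were seen. Tppp, a tubulin polymerisation factor gene, had 124 counts over the day 4 libraries, at least 41.2-fold higher than a floor of 3 counts over the day 2 group, and Isx, a homeobox gene, had 33, at least 11.0-fold higher.

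Cdkn1a, the CDK inhibitor p21 that accompanies cell cycle exit, rose by 1.36 ± 0.53 (adjusted p = 0.043), the 1 call among 18 tested genes of cell cycle exit, and kept its call in 1 of the 7 fits that left out 1 library. It was at 1046, 524 and 331 CPM at day 2 and 1400.0, 2357, 1307 and 1366 CPM at day 4, with replicate 3 the highest. Among 28 genes of TGF-beta and BMP signalling, Fst, encoding the activin and myostatin antagonist follistatin and named after its values were seen, rose by 1.81 ± 0.27 (adjusted p = 0.0318), less than the WT step of 3.02, a difference that was not called (adjusted p = 0.677).

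The mitosis list pointed down without a member passing the all-library test. None of its 32 tested genes was called, while all 32 had a negative fold change, with a median of -1.77. Of these, 20 had an unadjusted p under 0.05, against 1425 of the 13780 genes tested, and 7 had all day 4 libraries below all day 2 libraries, a pattern seen in 5.91% of all genes. With the block 17 fell (1.42% of all genes tested that way fell), and DESeq2 called 2 lower. Mki67, the proliferation marker, was at 8.71, 43.8 and 13.3 CPM at day 2 and 2.65, 4.66, 0.601 and 0.326 CPM at day 4. Replicate 3 of day 2 was the highest, the groups did not overlap, and the change was -3.50 ± 1.07 (adjusted p = 0.0868, block 0.00356). Top2a, a topoisomerase of dividing cells, was at 32.1, 91.4 and 31.9 CPM and then 9.67, 23.9, 3.30 and 1.96 CPM (-2.41 ± 0.94, adjusted p = 0.17, block 0.00332). Replicate 3 was the highest library of its group on both days in the summed level of the list, at 716.7 CPM against 236.8 and 221.6 CPM at day 2, and at 296.9 CPM against 88.5, 65.0 and 66.7 CPM at day 4. Without replicate 3 of day 4, 15 of the 32 were called lower. The fall in a bulk library cannot separate fewer dividing cells from less RNA per cell. Genes of mitosis outside the list did pass, and these were singled out after their values were seen: Aspm, a spindle pole gene, fell by 2.87 on the log2 scale (adjusted p = 0.0276), and the kinesin genes Kif18b and Kifc1 had log2 fold changes of -3.26 and -2.04 (adjusted p = 0.0391 and 0.0416). DNA replication genes (32 tested) held no call (4 at an unadjusted p under 0.05, 0 by DESeq2) and a median of -0.297, and with the block 1 rose and 0 fell.

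**Figure D3:**
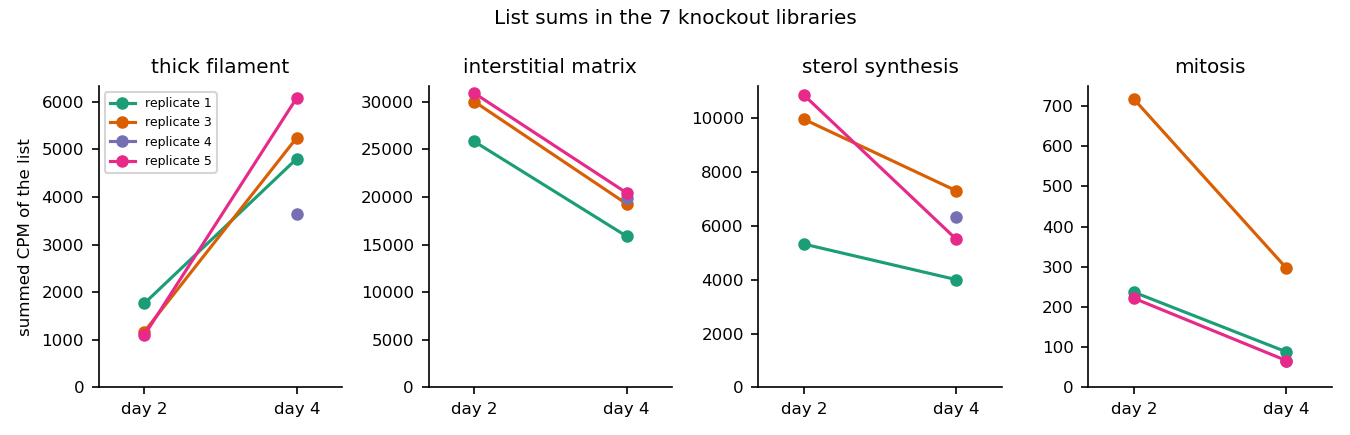
Summed CPM (vertical axes, linear, from 0) of 4 gene lists in each of the 7 knockout libraries. Points are libraries, colours are replicate numbers, and lines join the same number at days 2 and 4, with replicate 4 present at day 4 only. Each joined line rises for the thick filament list and falls for the other lists, and replicate 3 has the highest mitosis sum on both days; at day 4 the replicate 4 and 5 mitosis points nearly coincide.

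The interstitial matrix list had 4 of 39 tested genes lower and none higher, with a median of -0.80. Col5a3, a chain of the fibril-nucleating collagen V, was at 39.0, 106 and 55.0 CPM and then 7.02, 22.5, 15.6 and 12.3 CPM, without overlap, and fell (-2.20 ± 0.56, adjusted p = 0.0122). Col16a1, a fibril-associated collagen gene, was at 25.9, 79.1 and 73.2 CPM and then 7.10, 17.6, 17.5 and 21.3 CPM and fell (-1.88 ± 0.63, adjusted p = 0.042). Fbln2, encoding the matrix glycoprotein fibulin 2, was at 92.0, 95.4 and 79.8 CPM and then 26.6, 50.7, 36.2 and 43.1 CPM (-1.17 ± 0.23, adjusted p = 0.046). Col1a1, a chain of collagen I, was called as well (-2.85 ± 1.07, adjusted p = 0.0461), although its day 4 library of replicate 5 was above the day 2 library of replicate 1. The list's summed level was 25820 to 30890 CPM at day 2 and 15870 to 20420 CPM at day 4. With the block 13 members fell. None was called without replicate 3 of day 2 or replicate 5 of day 4, and 1 was without replicate 5 of day 2, replicate 1 of day 4 or replicate 4 of day 4. Fibro-adipogenic progenitor markers, which share matrix-producing character, summed to 352 to 666 CPM at day 2 and 380 to 455 CPM at day 4. Bone and cartilage markers summed to 1403, 1186 and 1690 CPM in replicates 3, 1 and 5 of day 2 and to 746.5, 932.6, 831.7 and 962.1 CPM in replicates 3, 1, 4 and 5 of day 4, so they were lower at day 4 without overlap. None of their 6 tested genes was called (1 at an unadjusted p under 0.05), and Bglap, Ibsp and Col2a1 had no read in any of the 7 libraries. The part of these cell types in the result was not tested. Of 7 fibro-adipogenic markers tested, Cd34, a progenitor surface marker named after its values were seen, was the 1 called lower (-2.44 ± 1.02, adjusted p = 0.02), at 3.13, 22.8 and 25.1 CPM and then 1.40, 3.65, 3.75 and 3.54 CPM, and Dpp4 and Tcf21 had no read in any of the 7 libraries. Basement membrane genes (20 tested) held no call (6 at an unadjusted p under 0.05, 0 by DESeq2), and 3 fell and 1 rose with the block, among them Col4a1 (-1.16, adjusted p = 0.0116) and Col15a1 (2.91, adjusted p = 0.000256).

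Several of the largest falls lay outside the matrix list. Cdh18, a type II cadherin gene, was at 21.4, 33.3 and 24.6 CPM and then 7.64, 3.24, 3.85 and 3.37 CPM, the largest fall among called genes of at least 5 CPM whose libraries did not overlap (-2.55 ± 0.32, adjusted p = 0.00152). Hacd4, an enzyme of very long chain fatty acid synthesis, was at 20.4, 45.4 and 41.4 CPM and then 13.5, 6.07, 12.1 and 10.6 CPM, with no overlap (-1.75 ± 0.43, adjusted p = 0.00157). Cav1, a caveolin gene related to the rising Cav3, was at 39.2, 73.8 and 39.8 CPM and then 23.1, 17.0, 10.2 and 11.5 CPM (-1.72 ± 0.40, adjusted p = 0.0122). In the growing knockout myoblasts of day 0, Cav1 had a mean of 225 CPM. Fstl1, a secreted glycoprotein gene, fell from 539, 1265 and 1150.0 CPM to 210.4, 412, 359 and 311 CPM (-1.59 ± 0.45, adjusted p = 0.0279). Igfbp7, an IGF-binding protein gene and the 1 called gene of 23 tested on the IGF and imprinted list, fell from 126, 139 and 94.7 CPM to 38.9, 59.0, 32.0 and 24.6 CPM (-1.62 ± 0.32, adjusted p = 0.0219). Diaph3, a formin gene of actin assembly and cytokinesis, fell by 1.75 on the log2 scale (adjusted p = 0.0489), with replicate 1 the highest day 4 library. Spn, encoding sialophorin, Stmn2, a microtubule-destabilising stathmin gene, Rab7b, a late endosomal GTPase gene, and Serpinb8, a serine protease inhibitor gene, changed by -1.97, -1.92, -1.89 and -1.76 (adjusted p = 0.00967, 0.046, 0.0318 and 0.0263).

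The list of sterol and fatty acid synthesis held no gene that passed the all-library test. None of 25 tested was called, 23 had a negative fold change (6969 of all 13780 genes tested did) and 16 an unadjusted p under 0.05 (1425 of all), DESeq2 called 2 lower, and the list's median was -0.82 against -0.13 in the WT step. Insig1, a sterol sensor and target of the pathway, was at 146, 225 and 278 CPM and then 112, 66.0, 128 and 74.0 CPM and fell with the block (-1.35, adjusted p = 0.0212), as did 2 other members, while 1 member rose with it. Acly, the ATP citrate lyase gene, which feeds fatty acid synthesis and is not on the list, was singled out after its values were seen and was called lower (-1.15 ± 0.31, adjusted p = 0.0434).

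In WT cells the same interval gave more calls, 597 higher (4.33%) and 889 lower (6.45%). Of the 93 genes that rose in knockout cells, 63 were also called higher in WT, which is 67.7% of the knockout list and 10.6% of the WT list, and 88 had a positive fold change there. Of the 59 that fell, 26 were also called lower in WT, 44.1% of the knockout list and 2.92% of the WT list. None was called in the opposite direction. The knockout fold changes of the rising genes had a median of 2.56 and the same genes in WT 1.52. Selecting the genes on the knockout step favours this difference. Selected on the WT step, the 597 genes called higher had a median of 1.304 in WT and 0.529 in knockout cells. The 889 called lower had -1.279 and -0.395. Of the 93 rising genes, 63 were called lower in knockout than in WT cells at day 2, and 2 higher. At day 4, 56 of them were called lower than in WT and 14 higher. Across the 13780 genes the fold changes of the steps, which share no library, had a Pearson r of 0.373 and a Spearman rho of 0.457, as a description in which genes are not independent replicates.

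**Figure D4:**
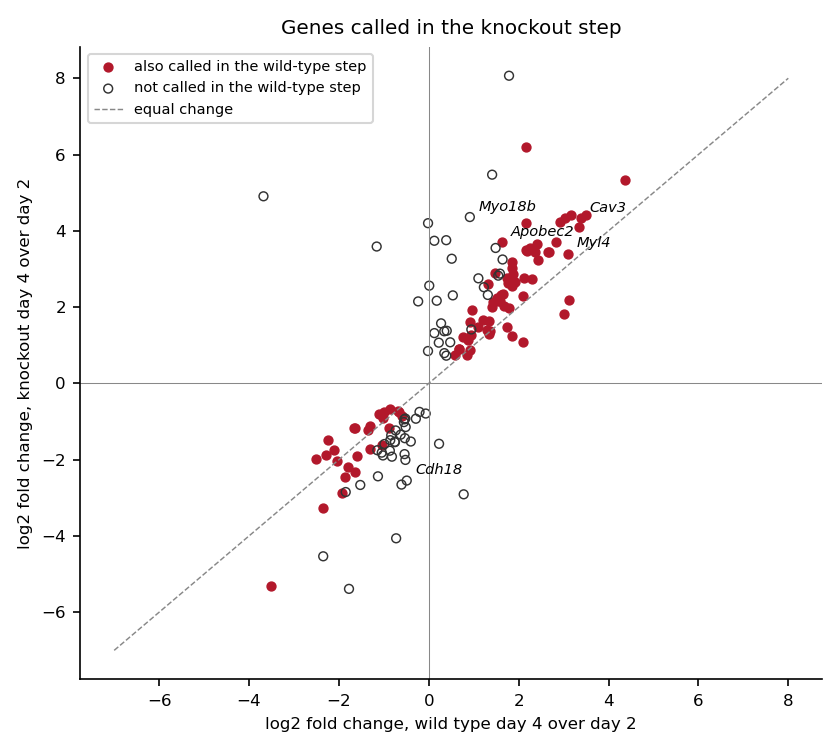
Log2 fold change from day 2 to day 4 in WT (horizontal axis) and knockout cells (vertical axis) for the 152 genes called in the knockout step. Filled points were also called in the WT step (63 of the 93 rising and 26 of the 59 falling genes), and the dashed line marks an equal change.

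The difference between the steps, tested as an interaction, was called for no gene (0.0%) by edgeR's quasi-likelihood test over all libraries, with 910 genes at an unadjusted p under 0.05. DESeq2 called 61 (0.426%), and the fit with the replicate block called 54 (0.415%), of which 25 were also called by DESeq2. Without replicate 3 of day 4 the blocked fit called 13, all among the 54. The values that follow are from the blocked fit, chosen because the all-library fit named none.

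Collagen VI genes, whose products form the microfibrils around muscle cells, fell in WT and differed between the steps in the blocked fit. Col6a1 was at 282, 436 and 528 CPM and then 305, 1125, 1118 and 922 CPM in knockout cells, with replicate 1 lowest on both days. Its WT step was -2.10 ± 0.66 (adjusted p = 0.0397), that of Col6a2 -2.36 ± 0.49 (adjusted p = 0.0325) and that of Col6a3 -2.29 ± 0.25 (adjusted p = 0.000216). The difference of the steps was 3.10 for Col6a1 (adjusted p = 0.0246), 3.25 for Col6a2 (adjusted p = 0.0161) and 1.95 for Col6a3 (adjusted p = 0.00657), and without replicate 3 of day 4 the adjusted p values were 0.0946, 0.0597 and 0.0425. Id3, which encodes an inhibitor of bHLH factors such as Myod1, was at 253, 514 and 359.9 CPM and then 270.3, 526, 570.4 and 444 CPM, with overlap, against a WT step of -2.11 ± 0.79 (difference 2.30, adjusted p = 0.00697, and 0.0425 without that library). Id2, its relative, differed by 1.35 (adjusted p = 0.0387, 0.141 without it). Vcam1, encoding an adhesion molecule of myoblasts, differed by 1.60 (adjusted p = 0.0273, 0.0796 without it). DESeq2 called the difference of Col6a3 (adjusted p = 0.0467). It did not call those of Col6a1, Col6a2, Id3, Id2 and Vcam1 (adjusted p = 0.165, 0.0671, 0.121, 0.0959 and 0.0881). Col6a1, Col6a2, Col6a3 and Vcam1 were singled out after their values were seen.

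The 6 largest positive differences among genes of at least 5 CPM over the 4 groups were in Cdh11, Gap43, Add2, Bgn, Gpr176 and Mamdc2. Cdh11, a cadherin gene, Gap43, a growth cone protein gene, and Add2, an adducin gene of the membrane skeleton, had at most 0.363 CPM in 6 of the 7 knockout libraries of the step, and stood at 3.64, 3.04 and 2.43 CPM in replicate 3 of day 4. Without that library they gave adjusted p values of 0.364, 1 and 0.469. Bgn, the small matrix proteoglycan biglycan, was at 2.44, 5.81 and 5.91 CPM and then 2.18, 62.6, 4.91 and 10.2 CPM, and its high value lay in replicate 3 of day 4. Its difference was 3.81 (adjusted p = 0.0405) with that library and 2.68 (adjusted p = 0.0425) without it. Gpr176, an orphan receptor gene, was at 6.75, 7.63 and 8.73 CPM and then 10.4, 9.52, 10.3 and 7.72 CPM in knockout cells, against a WT step of -3.79 ± 0.99 (difference 3.78, adjusted p = 0.00849). Mamdc2 rose in knockout cells (3.74 ± 0.73, adjusted p = 0.0226) at no more than 4.03 CPM, while WT cells, at 99.5 ± 37.7 CPM at day 4 (SD, n = 4), had a step of 0.12 ± 0.43 (adjusted p = 0.926).

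In the other direction, the blocked fit called 17 genes with a lower step in knockout than in WT cells (0.131%). Mef2c was at 2.87, 3.81 and 6.03 CPM and then 6.71, 5.26, 5.01 and 15.8 CPM in knockout cells, against 44.3 ± 30.7 CPM and 306 ± 95.4 CPM in WT (SD, n = 4 each). The steps differed by -1.98 (adjusted p = 0.0394, 0.172 without replicate 3 of day 4), and DESeq2 did not call this difference (adjusted p = 0.269). The largest negative differences among genes of at least 5 CPM were in Cd36, Aspn, Arhgef6, Daam2, Fam189a2 and Tmem246. Cd36, a fatty acid transporter gene, differed by -3.50 (adjusted p = 0.0348), Arhgef6, a Rac and Cdc42 exchange factor gene, by -2.87 (adjusted p = 0.0423) and Daam2, a formin of Wnt signalling, by -2.52 (adjusted p = 0.0046). Of these 3, Daam2 alone kept its call without replicate 3 of day 4 (adjusted p = 0.0273). DESeq2 called Arhgef6 and Daam2 (adjusted p = 0.00366 and 0.0265) and not Cd36 (adjusted p = 0.065). Dhcr7, the last enzyme of cholesterol synthesis, named after its values were seen, rose in WT (1.09 ± 0.32, adjusted p = 0.0453) and was at -0.89 in knockout cells (difference -1.91, adjusted p = 0.0431, 0.173 without that library). Myo18b had the opposite relation, a larger rise in knockout than in WT cells (3.34, adjusted p = 0.0465, 0.169 without it), from a day 2 mean of 0.482 ± 0.429 CPM (SD, n = 3) against 22.0 ± 11.7 CPM in WT (SD, n = 4). The steps of Fam107a and Inmt also differed upward in knockout cells, by 2.89 and 8.43 (adjusted p = 0.00657 and 0.00324). Without that library the adjusted p values were 0.0425 and 0.0132, and DESeq2 gave 0.0348 and 0.0131. Inmt did not exceed 1.365 CPM in the WT libraries of days 2 and 4.

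**Figure D5:**
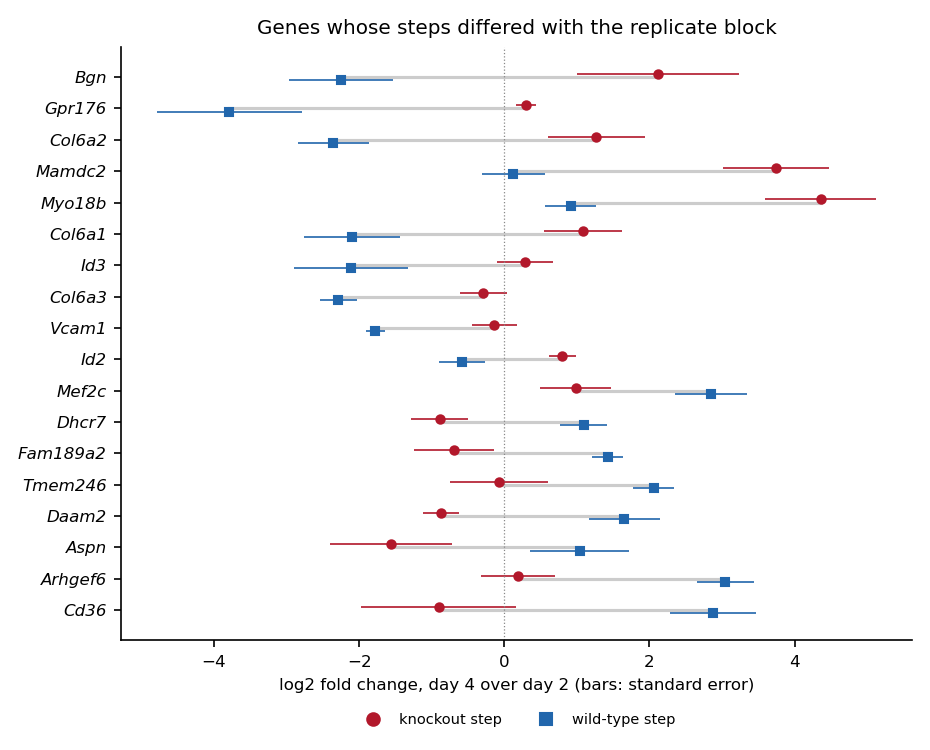
Log2 fold change from day 2 to day 4 (horizontal axis) in knockout cells (red circles) and WT cells (blue squares), with standard errors, for named genes whose steps differed in the fit with the replicate block. The all-library fit called none of these differences, and the rise of Bgn rests on 1 knockout library. Cdh11, Gap43, Add2, Fam107a and Inmt are not drawn.

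Changes before and after the interval in the knockout cells are set beside the step. These comparisons share the day 2 or day 4 libraries with the step, so their values are given side by side only. The 93 and 59 genes were selected on their change from day 2 to day 4, which by itself favours a larger value there. For the 93 rising genes the median log2 fold change was 0.873 from day 1 to day 2, 2.56 from day 2 to day 4 and 0.243 from day 4 to day 6. For the 59 falling genes it was -0.708, -1.59 and -0.057. Fhl1 moved by -0.04, 1.57 and 0.31 over these intervals, Cdh18 by -0.53, -2.55 and -0.09, and Myog by 2.02, 1.83 and 0.14. Cav1 had moved by -1.74 from day 1 to day 2 and by -1.72 from day 2 to day 4.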

How the data were processed

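RNA-seq was made from FlncKO-C2C12 and WT C2C12 cells at 5 days of differentiation (TruSeq Stranded mRNA libraries, per the labels' protocols). The authors deposited a table of raw read counts per gene, 29980 genes, of which 10001 had no read. FastQC 0.11.9, STAR 2.7.9, featureCounts 2.0.3 and DESeq2 were used, per the submitters' processing notes, which list GRCm38 and GRCh38 with no role. The annotation and strand setting are not given in the sources used here, so antisense and overlapping genes could share reads. Of the deposited count values above 0, 64.4% were even, and 1 column matched no sample and was not used. Coordinates of promoters are RefSeq's, on GRCm38.p6.

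Genes were filtered by group (filterByExpr, 13780 kept), scaled by TMM (factors 0.9035 to 1.054) and fitted over all 39 libraries in 10 groups with edgeR 4.0.16 (R 4.3.3, limma 3.58.1), giving 29 residual degrees of freedom and a common biological coefficient of variation of 0.3257. The robust quasi-likelihood test was adjusted by Benjamini-Hochberg over all genes tested, and genes under 0.05 were called. Standard errors come from the spread of log2 CPM (prior count 2) between libraries. They are not the errors of the fitted fold changes or of the test, and the prior count narrows them at low counts. Each of the 7 libraries of the step correlated with the others of its group with a mean r of 0.9538 to 0.9786. On simulated counts for this comparison (13780 genes), 74.6% of 67 genes changed 4-fold, 23.9% of 67 changed 2-fold and 5.97% of 67 changed 1.5-fold were recovered, with 5 false calls. The simulated libraries were independent, without a replicate effect, and apart from the set changes each gene had 1 mean in all groups. The recovery and the false calls therefore need not hold for these data.

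The labels give replicates the same numbers on both days. Across 13780 genes, deviations of same-numbered knockout libraries correlated with r of 0.3587, 0.3351 and 0.3314 for replicates 3, 1 and 5, against -0.3856 to 0.1086 for other pairs, so a fit with the number as a block was also made. Replicate 4 has no day 2 library, so it adds nothing to the blocked contrast. The blocked fit of the step has far fewer residual degrees of freedom than the 29 of the all-library fit. Its small p-values therefore rest on a thin estimate of the spread.

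Alternatives were DESeq2 1.42.0, its size factors, no filter, halved counts, the libraries of the contrast or of the knockout alone, a test against a 1.5-fold change (glmTreat), the block, and leaving out each library. The comparison, members and lists were chosen with earlier results of these data known. Named genes were the 12 rises and 12 falls with the largest fold change among called genes with a mean of at least 5 CPM and no overlap between libraries, the 6 largest differences from the WT step in each direction, up to 4 members of each described list by smallest p, and 31 genes of muscle differentiation. Unnamed gene models were counted only. Since the difference from WT was called for no gene in the all-library fit, its named genes follow the calls of the block, a choice made after seeing the data. Permutation tests were exact and two-sided.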

Additional observations from a re-analysis of the deposited data

Results flagged for a closer look

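Among 127 values checked over the 4 knockout libraries of day 4, 18 had 1 library farther from the others than Dixon's 95% critical value for 4 samples allows. For independent, normally distributed values chance gives such a gap in about 1 in 20 groups. The values listed here are linear CPM, and genes of the same library are not independent. Some of these genes, such as Cdh11, Gap43 and Add2, were named for differences that rested on 1 of these libraries. The 18 of 127 can therefore not be set against that rate.

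In replicate 5, Inmt was at 33.7 CPM against 3.44 to 7.71 CPM in the other libraries and Myo18b at 21.3 CPM against 5.81 to 7.33 CPM. Myom3 was at 94.2 CPM there against 47.7 to 52.1 CPM, Cacnb1 at 104.0 CPM against 76.1 to 79.4 CPM, Mef2c at 15.8 CPM against 5.01 to 6.71 CPM, and Xirp2 at 1.31 CPM against at most 0.202 CPM. All are genes of muscle except Inmt.

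In replicate 3, the library with reads of genes otherwise read in WT cells, Bgn was at 62.6 CPM against 2.18 to 10.2 CPM. Cdh11 was at 3.64 CPM against at most 0.156 CPM, Gap43 at 3.04 CPM with no read in the others, and Add2 at 2.43 CPM against at most 0.218 CPM. Cell division genes were high in the same library, with Anln at 18.4 CPM against 2.07 to 3.28 CPM, Prc1 at 11.1 CPM against 1.63 to 2.18 CPM and Ccne1 at 6.88 CPM against 1.41 to 2.18 CPM. Cdkn1a, which is linked to leaving the cycle, was high there too, at 2360.0 CPM against 1310.0 to 1400.0 CPM.

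In replicate 1, Cdh18 was at 7.64 CPM against 3.24 to 3.85 CPM, Diaph3 at 11.1 CPM against 4.15 to 5.26 CPM and Nusap1, a spindle gene, at 0.936 CPM against 0.601 to 0.653 CPM. Cd34 was low there, at 1.4 CPM against 3.54 to 3.75 CPM.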

How the results depend on the processing

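The count of genes called in the knockout step depended on the processing. Genes called higher and lower were 93 and 59 in the all-library fit, 57 and 29 without the filter, 179 and 120 with DESeq2, 51 and 32 with the knockout libraries alone and 21 and 6 in the test against a 1.5-fold change. With the libraries of the contrast alone 24 were called lower. The replicate block gave 224 and 173, and 248 and 215 when replicate 3 of day 4 was also left out. Leaving out 1 library gave 5 to 77 higher and 2 to 81 lower. Of the 48 named genes called, none changed sign in any setting, 6 kept their call without replicate 3 of day 2, and 47 kept it with the block, in which 1 could not be fitted. The block also called 27 of the 77 named genes not called without it. No step-against-step difference was called without the block except 61 with DESeq2 and 0 to 7 when 1 library was left out (7 without WT replicate 5 of day 2, 2 without WT replicate 1 of day 2, 1 without WT replicate 3 or knockout replicate 5 of day 2). The block called 54, and 13 without replicate 3 of day 4, and in all 54 the sign was the same without that library. The WT step gave 129 higher and 131 lower against a 1.5-fold change, 570 lower without the filter and 335 lower with its own libraries alone, and 305 to 597 higher and 477 to 894 lower when 1 library was left out. The cause of these shifts was not tested. Leaving out 1 library gave 0.547 to 0.733 for Flnc on the log2(CPM + 1) scale, and 0.642 to 1.51 percentage points for the mitochondrial share, in designs too small to reach 0.05. The shallowest library, of 9877519 counts, limits genes under about 1 CPM, and many 2-fold changes may have gone uncalled, as they did in the simulated counts.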

Other observations

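Gene lists outside the muscle programme held few or no calls in the knockout step. No gene was called by edgeR's quasi-likelihood test among the interferon and MHC genes (median log2 fold change -0.49), the ER stress genes (0.239), the hypoxia and glycolysis genes (-0.118), the Wnt and hedgehog genes (-0.267), the nonmuscle and smooth muscle actin genes (-0.121) or the genes of the mitochondrial genome (0.579). At an unadjusted p under 0.05 there were 3, 1, 2, 4, 2 and 0 genes in these lists, in that order. The replicate block called 1 ER stress gene and 1 hypoxia and glycolysis gene, and DESeq2 called 1 hypoxia and glycolysis gene and none of the other 5 lists. Against these, the median over all genes tested was -0.004. Ifi27l2a, an interferon-inducible gene outside the list, was singled out after its values were seen. It was called lower (-5.39 ± 0.78, adjusted p = 0.0143), from a mean of 4.25 CPM at day 2 to 0.0794 CPM at day 4. Among smooth muscle markers, which myoblasts also express, the summed level was 4901 to 9678 CPM at day 2 and 4942 to 13110 CPM at day 4. This sum includes Des, the gene used above to mark the cells as myogenic, so it is not a measure of smooth muscle alone.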
